A study of Drosophila melanogaster with 33 samples.

Results

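The heads of male and female CantonS flies aged 30 days were compared, with linear RNAs and circular RNAs (circRNAs) taken separately. The comparison uses the 6 libraries that the labels give to day 30, 3 of males and 3 of females, out of 33 libraries of the series, which follow both sexes from day 0 to day 50. CantonS is a wild-type laboratory strain, and no allele, transgene or drug distinguished the groups. Per the methods, age-matched males and females were allowed to mate and were then separated for aging at a single temperature in a light and dark cycle, and each library holds RNA from pooled heads of separate biological replicates, so that p-values measure the spread between pools and not between single flies. A head pool holds brain, eye, muscle, fat body, hemocytes and cuticle, and fewer cells of a type cannot be told apart from less RNA per cell. Values are normalized reads, meaning reads divided by a size factor per library, and every log2 value is the male minus the female mean of log2(normalized reads + 1). A gene or circRNA was called when this difference exceeded 0.5 in size with an adjusted p under 0.05 (limma, Benjamini-Hochberg over all features tested).

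In Drosophila the X chromosome dose sets sex through Sex-lethal (Sxl), a splicing factor made in females, which directs female splicing of transformer (tra). Tra protein in turn directs female splicing of doublesex (dsx), whose male and female proteins are transcription factors, and of fruitless (fru), which acts in neurons. Sxl also represses msl-2 in females. In males the MSL complex, which includes MSL-2 and the noncoding roX1 and roX2 RNAs, binds the single X and raises its transcription. Yolk proteins are made by female fat body, including the fat body of the head. CircRNAs are closed rings formed when a downstream splice site is joined to an upstream one, and they are counted here by reads over that back-splice junction.

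The 6 libraries held 47750654 to 85222452 linear reads and 97708 to 177491 back-splice reads. Of the genes in the table, 12685 reached a mean of 10 normalized reads and were tested, and of the circRNAs 2775 passed the filter. Neuron, glia and eye markers were abundant in every library, with elav at 19909 to 21910 normalized reads and ninaE at 952788 to 1111647, whereas the eggshell and accessory gland markers Cp36, Vm26Aa, Acp26Aa and SP stayed at or under 3.26 in all 6. Other germline and reproductive tract markers were present in both sexes, with Acp36DE at 280 to 358, betaTub85D at 63.4 to 100.1, vas at 36.2 to 57.7 and osk at 17.6 to 27.2, and Mst98Ca and Mst87F ranged from 1.09 to 38.8 and from 0 to 14.7. Y-linked genes separated the labels, since kl-2, a sperm dynein gene on the Y, averaged 60.6 normalized reads in males and 0.246 in females. The summed reads of 12 Y-linked genes were 98.3, 150 and 117 in the males and 0, 2.95 and 0 in the females.

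The largest sex differences at day 30 included genes of the fat body and of dosage compensation, and repeats of the Y chromosome. Of the linear genes, 517 (4.08%) were higher in males and 1038 (8.18%) were higher in females, together 12.3%. The values of the sexes did not overlap for 60.1% of genes, and the median difference over all genes was 0.01. This split depends on the scaling. The yolk protein genes alone took up 9.29% ± 0.232 (SD, n = 3) of all linear reads in females and 0.00506% in males. When libraries were scaled to their total linear reads, the median gene shifted by 0.24 towards males and the counts became 2290 higher in males and 546 higher in females. When the totals were taken without the yolk genes, which was chosen after seeing the data, the shift was 0.10 and the counts were 975 and 770, whereas edgeR with TMM scaling gave 592 and 1126. The share of calls that were higher in males was thus 33.2% with the table's size factors, 80.7%, 55.9% and 34.5%. Values below are relative to the median gene under the table's size factors.

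**Figure D1:**
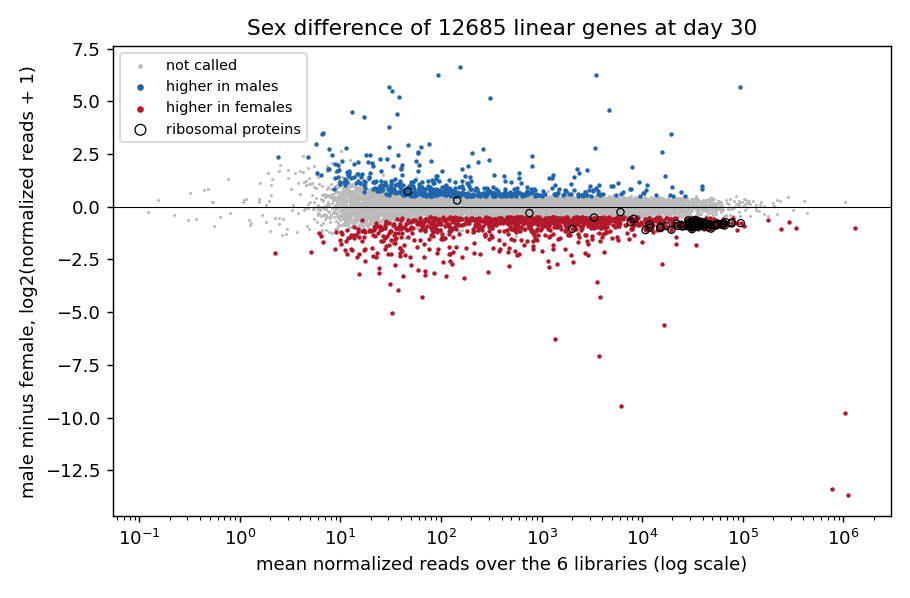
Each point is a linear gene, plotted by its mean normalized reads over the 6 libraries (horizontal, log scale) and its male minus female log2 difference (vertical). Blue points are the 517 genes higher in males, red points the 1038 higher in females and open circles the ribosomal protein genes, most of which lie together below 0.

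The yolk protein genes had the largest differences of all genes named here. They encode the lipase-like proteins that are secreted into the hemolymph and loaded into eggs. Yp1 (FBgn0004045, X:10053811-10055498, + strand) had 1524815, 1533241 and 1552779 normalized reads in the females and 148, 112 and 174 in the males. Yp2 (FBgn0005391, X:10050951-10052636, − strand) had 2148359, 2205008 and 2293131 in the females and 172, 160 and 177 in the males. For Yp3 (FBgn0004047, X:13759546-13761547, + strand) the female values were 1995985, 2142679 and 2109602 and the male values 2342, 2372 and 2377. No male library came near a female one for any of the 3 genes, and Yp3 had the most male reads among them. The log2 differences were -13.39 ± 0.74 (SE) for Yp1, -13.67 ± 0.73 for Yp2 and -9.78 ± 0.36 for Yp3, that is 10621-fold, 13067-fold and 881-fold higher female means, with adjusted p of 2.5e-12, 1.6e-12 and 2.1e-15.

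Yp1 and Yp2 are transcribed away from each other from a shared region of 1174 bases, which is known to hold binding sites for both Doublesex proteins. A search of both strands for ACAATGT, the core of the Doublesex site, found a single match in this region, 246 bases before the start of Yp1, and a match 84 bases before the start of fit, a female-biased fat body gene described next. They are shown with the core in capitals, 5′ to 3′ on the + strand of Release 6 (dm6) at X:10053558-10053564 and 3R:21884539-21884545.
Yp1 and Yp2: ggtgcacaactACAATGTtgcaatcagcg
fit: gctttgtcctcACAATGTtgctactcagc
The same letters occur within 250 bases upstream of 3.92% and within 1174 bases upstream of 18.1% of 12580 genes tested. No match lay within 250 bases upstream of Yp3, Obp99a, sxe2 or Cyp4d21.

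Other fat body genes followed in both directions. Obp99a (FBgn0039678, 3R:29671657-29672334), an odorant-binding protein gene, had 12493, 13294 and 11478 normalized reads in the females against 8.35, 16.4 and 31.6 in the males, a 662-fold difference of the means (log2 -9.47 ± 0.50, adjusted p = 4.2e-13). For fit, female-specific independent of transformer, whose product is a secreted satiety signal, the females had 34247, 31781 and 30465 and the males 596, 606 and 776 (log2 -5.62 ± 0.58, adjusted p = 6.3e-08). The male values of both genes lay far below every female value. Male fat body genes went the other way. Cyp4d21, also called sxe1, a cytochrome P450 gene, had 368, 348 and 393 normalized reads in the females and 8839, 8855 and 9008 in the males (log2 4.59 ± 0.18, adjusted p = 4.6e-16). Its partner in male head fat body, the lipase gene sxe2, averaged 3210 ± 234 (SD) in females and 35160 ± 541 in males, 10.95-fold higher (adjusted p = 3.1e-19). Obp99b (3R:29716254-29716896), on the same arm as Obp99a but not next to it, had 1086, 917 and 621 in the females and 4987, 6273 and 6359 in the males (log2 2.78 ± 0.44, adjusted p = 1.9e-05). These odorant-binding protein genes were thus biased in opposite directions.

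Of 15 genes listed for female and male fat body, all tested, 9 were higher in females, 4 were higher in males and 2 were not called, with a list median of -1.36 against 0.01 over all genes. The list also holds larval serum proteins, which store amino acids. Lsp1beta, Lsp2, Lsp1gamma and Fbp1 were lower in males, with log2 differences of -1.81, -1.78, -0.96 and -1.36. Lsp1alpha was higher in males at 3465 against 1015 normalized reads (1.77). The direction for Lsp2 changed with age, since it was called higher in males at day 10 (5.13, adjusted p = 5.0e-08). It was not called at days 0 and 20, and was called higher in females at days 40 and 50 (-2.55 and -5.35). Among 16 genes of lipid storage and transport, 6 were higher in females and none was higher in males, against 8.18% and 4.08% of all genes. They included apolpp, the lipophorin that carries lipid in the hemolymph, at 1758970 ± 53794 normalized reads in females and 866325 ± 5662 in males (-1.02 ± 0.16, adjusted p = 1.5e-05), Apoltp, which loads it (-1.12), Mtp (-0.78) and the fatty acid synthases FASN1 (-0.74) and FASN2 (-1.04). With totals of linear reads as the scale, 4 of the 16 lipid genes were higher in females and 1 was higher in males.

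**Figure D2:**
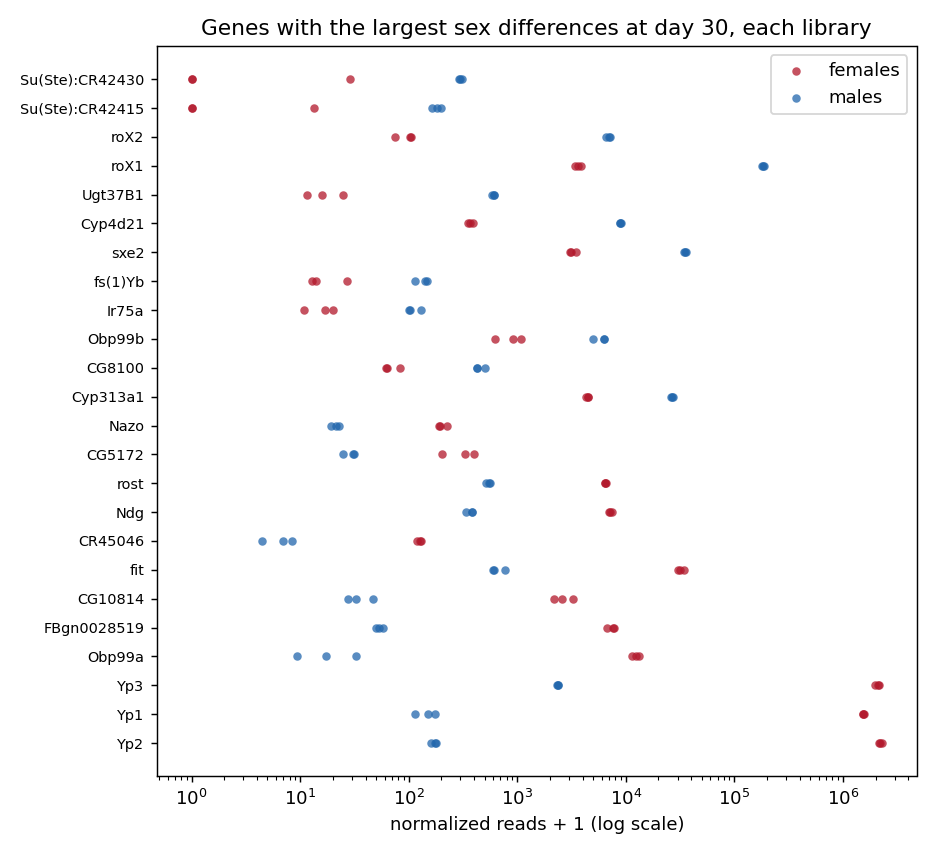
Normalized reads plus 1 (horizontal, log scale) of the genes with the largest called sex differences that did not overlap between the sexes and averaged at least 50 reads. Each red point is a female library and each blue point a male library. Yp2, Yp1 and Yp3 show the widest gaps among genes higher in females, and the roX RNAs among those higher in males. For the Su(Ste) repeats, female replicate 2 lies nearer to the males than the other females do.

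The roX genes of dosage compensation were higher in males. roX1 (FBgn0019661, X:3857230-3862697, − strand) had 3415, 3868 and 3652 normalized reads in the females and 181792, 186991 and 185072 in the males (log2 5.66 ± 0.08, 50.6-fold, adjusted p = 4.2e-27). roX2 (FBgn0019660, X:11579065-11580432, + strand) had 74.0, 103 and 101 in the females and 6983, 6595 and 7218 in the males (6.22 ± 0.27, 74.7-fold, adjusted p = 3.4e-15). Neither RNA overlapped between the sexes, and roX1 was clearly present in females. Its female means at days 0, 10, 20, 30, 40 and 50 were 189, 1721, 2782, 3645, 4644 and 5106, whereas the male mean was 114683 at day 0 and between 166980 and 189063 from day 10 on. roX2 in females had a mean of 11 at first and of 92.8 at day 30. Both RNAs carry roX boxes, short stretches bound by the MSL complex. A search for GTTNTACG on the transcribed strand found 3 in roX1 and 2 in roX2, shown here with the box in capitals, 5′ to 3′ along each gene in dm6 sequence; the start of each box, counted from the gene's first base, is 3658, 3725 and 3776 for roX1 and 1015 and 1080 for roX2.
roX1 (X:3859033-3859040): gctgatcaacGTTCTACGcagttcttaa
roX1 (X:3858966-3858973): gtgtggaaacGTTATACGaatcttcacc
roX1 (X:3858915-3858922): aattgaaatcGTTATACGcctgagccga
roX2 (X:11580079-11580086): tatgggtaacGTTTTACGcgccttaacc
roX2 (X:11580144-11580151): ctagtgaaatGTTATACGaaacttaaca
Of 7252 annotated genes of 1000 to 6000 bases, 9.46% held at least 1 such match, 0.538% at least 2 and 0.0689% at least 3.

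Of 11 dosage compensation genes tested, 3 were higher in males, namely the roX RNAs and msl-2, and none was higher in females. msl-2, the male-limiting subunit, averaged 2348 ± 66.7 normalized reads in females and 4104 ± 94.4 in males (0.81 ± 0.05, adjusted p = 5.1e-12). The acetyltransferase gene mof and msl-3 differed by 0.30 and 0.29, under the limit of 0.5, and msl-1 and the helicase gene mle were not called. Among 13 sex determination genes 1 was called. Sxl RNA had 30587, 30203 and 30244 normalized reads in the females and 18240, 18063 and 17236 in the males (-0.77 ± 0.15, adjusted p = 1.4e-04), with no overlap. For tra, dsx and fru the gene totals differed by -0.32, -0.31 and 0.18, all with adjusted p under 0.05 but below the size limit. A gene total does not separate male from female splice forms of these genes.

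The other genes with the largest differences belonged to several classes. On the female side stood FBgn0028519, for which the tables give no symbol (7401 ± 566 normalized reads in females and 53.1 ± 4.11 in males, log2 -7.09), and CG10814 (2687 ± 561 and 34.6 ± 9.71, -6.25). Ndg, the basement membrane protein nidogen, averaged 7201 in females and 367 in males (-4.29 ± 0.12, adjusted p = 3.2e-19). rost, known from myoblast fusion, was 11.9-fold higher in females (-3.57), and Nazo and CG5172 differed by -3.27 and -3.38. asRNA:CR45046 (-4.29) overlaps fit on the same strand in the annotation, so its reads cannot be told apart from those of fit where they overlap. The Degenerin channel genes ppk30, ppk20 and ppk19, next to Obp99a, were called with -3.96, -3.67 and -3.14 at female means of only 70.5, 57.6 and 43.4 normalized reads.

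On the male side the Y-linked Su(Ste) repeats Su(Ste):CR42430 (6.61) and Su(Ste):CR42415 (6.25) ranked first, but they belong to a multi-copy family whose reads the counting could split between copies. Female replicate 2 carried 28.0 and 12.5 normalized reads of them, and the other females 0. Ugt37B1, a UDP-glycosyltransferase gene, had 23.9, 14.7 and 10.5 in the females and 605, 608 and 579 in the males (5.18 ± 0.35, adjusted p = 4.0e-12), all males being far above all females. The P450 gene Cyp313a1 averaged 4429 and 26753 (2.59, adjusted p = 1.1e-16), and CG8100 differed by 2.73. Neighbouring genes went together at several sites, of which 2 are given here. fs(1)Yb, a piRNA factor known from ovarian somatic cells, was at 17.1 ± 8.03 and 134 ± 18.4 (2.98), and fs(1)Ya and vilya beside it differed by 3.77 and 4.38. Ir75a and Ir75b, adjacent acid-sensing olfactory receptors, differed by 2.85 and 2.55 and were the only 2 of 30 ionotropic receptors called. S-Lap7, a sperm aminopeptidase gene, had no read in any female and 25.9 normalized reads in males, which is at least 26.2-fold higher with a floor of 3 counts over the females.

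Ribosomal protein genes were the broadest group. Of 80 tested, 76 were higher in females and none was higher in males, against 8.18% higher in females over all genes, and their median was -0.85. RpL23A had 118457, 123146 and 121502 normalized reads in the females and 70761, 69714 and 71127 in the males (-0.78). RpS6, a target of growth signalling, averaged 81230 ± 290 and 44578 ± 316 (-0.87 ± 0.08, adjusted p = 2.4e-09). The summed reads of the 86 ribosomal protein genes in the table were 3544435 in females and 1981073 in males, 0.559 of the female sum. The 4 that were not called, RpS15Ab, RpL24-like, RpS10a and RpS5b, include duplicate copies with low reads, such as RpS5b at 35.6 and 58.1. Scaled to total linear reads, 66 were higher in females and 2 were higher in males, with a median of -0.60. At days 0, 10, 20, 40 and 50 the numbers higher in females were 1, 75, 67, 69 and 75 of the 80, with medians of -0.25, -0.74, -0.74, -0.69 and -0.76. Over all genes 2.99%, 5.37%, 11.7%, 6.33% and 6.94% were higher in females at these ages.

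**Figure D3:**
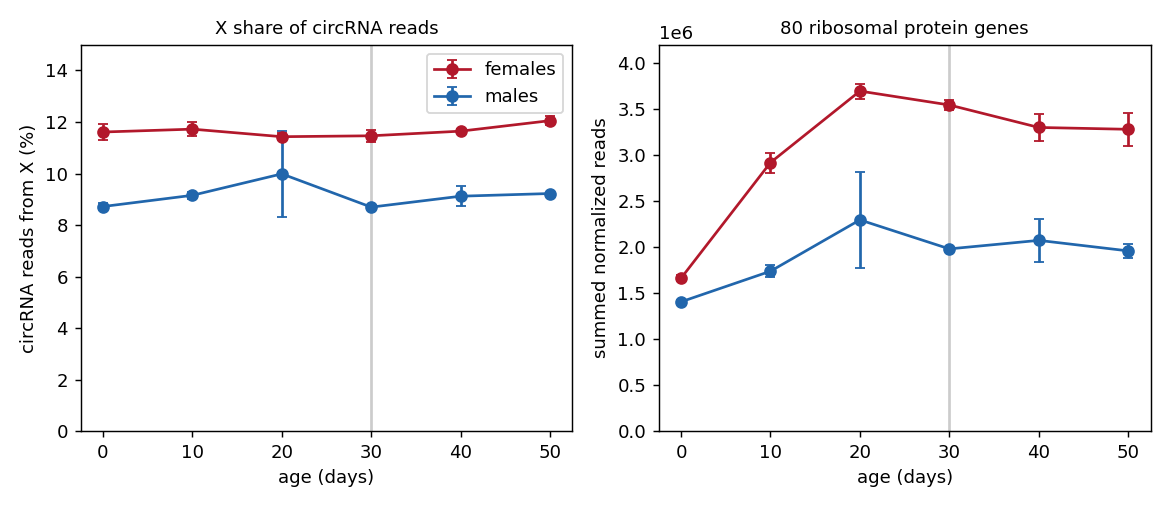
Left, percentage of circRNA reads that come from X-linked circRNAs outside the yolk genes, and right, summed normalized reads of 80 ribosomal protein genes, both against age in days. Points are group means with SD bars over 2 or 3 libraries, females in red and males in blue, with day 30 marked by the grey line; at day 30 the X share was 11.5% in females and 8.70% in males.

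Most of the listed hemocyte genes, and 6 of 15 genes of stress signalling, were higher in females, against 8.18% of all genes. Of 12 hemocyte genes, 8 were higher in females and none in males (median -0.73), and their sum was 122527 to 129559 normalized reads in females and 82843 to 88883 in males. NimC1, a phagocytosis receptor, had 5348, 5346 and 4834 normalized reads in the females and 2635, 2402 and 2569 in the males (-1.03 ± 0.09, adjusted p = 1.1e-09). He, PPO2 and PPO1 differed by -1.16, -1.01 and -0.97, and the collagen genes Col4a1 and vkg, which fat body also makes, by -0.95 and -0.55. Hml, the general hemocyte marker, was at 17914 ± 1550 and 16899 ± 1577 and was not called (-0.08, adjusted p = 0.68), with overlapping values. Among 15 stress peptide and JAK-STAT genes, 6 were higher in females and none in males. They were Diedel (-2.72), the Turandot genes TotM (-2.27) and TotB (-2.05), the cytokines upd3 (226 and 59.6 normalized reads, -1.91) and upd2 (-1.45), and the transcription factor Stat92E (-0.53). Scaled to total linear reads, 6 hemocyte genes and 5 stress genes were higher in females, and 1 stress gene was higher in males.

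Of 31 antimicrobial peptide genes 4 were higher in females and 2 were higher in males, where 8.18% and 4.08% of all genes were, so the family is given for its members only. Drs had 5476, 8672 and 5360 normalized reads in the females and 4206, 2164 and 2578 in the males (-1.15 ± 0.36, adjusted p = 0.014), with the nearest values of the sexes at 5360 and 4206. This call was lost without female replicate 2 (adjusted p = 0.079) or male replicate 2 (0.074). CecB averaged 186 ± 58.0 and 52.0 ± 27.5 (-1.93, adjusted p = 0.027), which did not pass without female replicate 1 (0.093), female replicate 2 (0.061) or male replicate 3 (0.14). Drsl4 (1.34) and BomBc3 (0.88) were higher in males. The pattern recognition gene PGRP-SA was the single member called of 11 (-0.86), higher in females.

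Metabolic and hormone genes differed in both directions. The counts of this paragraph stand beside 8.18% of all genes higher in females and 4.08% higher in males, and the lists are given for their members only. Ilp5, an insulin-like peptide of brain neurosecretory cells, had 877, 967 and 948 normalized reads in the females and 302, 355 and 283 in the males (-1.57 ± 0.15, adjusted p = 4.5e-09). Of 33 neuropeptide genes, Ilp5 and CCHa2 (-0.71) were higher in females, and Dh31 (0.61), Hug (0.60), AstC (0.56) and the clock neuropeptide Pdf (0.50) were higher in males. In nutrient signalling, daw, Thor and S6k were higher in females (-0.93, -0.86 and -0.55) and none of 15 was higher in males. Cyp18a1, which inactivates ecdysone, averaged 4317 in females and 1396 in males (-1.63). Of 11 genes listed with the amino acid and one-carbon enzymes, 4 were higher in males and 2 in females, namely Cyp18a1 and Oat (-0.98), with a list median of -0.06. The 4 were Gnmt, a glycine methyltransferase gene, at 8974 ± 289 in females and 24438 ± 1275 in males (1.44 ± 0.24, adjusted p = 3.9e-05), and the tyrosine breakdown genes hgo (0.97), Hpd (0.93) and Faa (0.56). Of 16 digestive enzyme genes 4 were higher in males, among them the amylase genes Amy-p (1.73) and Amy-d (1.87), near-identical copies that may share reads, and 3 in females, which were LysX (-2.75), LysD (-1.45) and tobi (-1.08). The list median was 0.03. Small heat shock genes Hsp26 (-0.85), Hsp27 (-0.93) and Hsp23 (-0.68) were among 5 of 17 heat shock genes higher in females, while Hsp67Ba (0.55) and Hsp67Bc (0.56) were higher in males.

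Chemosensory and cuticle genes showed calls in a minority of each family. Of 33 odorant-binding protein genes 10 were higher in females and 3 in males. Besides Obp99a the former included Obp56f (-3.22), Obp56e (-3.14), Obp83cd (-2.22) and Obp56d (32025 and 11810 normalized reads, -1.44), which is expressed in the antenna. Of 59 cuticle protein genes 14 were higher in females, such as Edg91 (-2.39) and Lcp65Ac (-2.22), and 3 were higher in males, with Cpr72Ec at 7353 and 15124 (1.04). The P450 genes, with 9 of 79 higher in females and 5 in males, and the odorant receptors, with 1 and 3 of 25, are set beside 8.18% and 4.08% of all genes, and nothing is read from these counts. Of 26 gustatory receptors none was called.

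Genes of the nervous system, eye, muscle and reproductive tract are given for their members only. Their counts are set beside 8.18% of all genes higher in females and 4.08% higher in males. None of 21 neuronal, 12 glial or 25 muscle genes was called, with list medians of 0.26, 0.16 and 0.01. The sexes did not overlap for 21 of the neuronal, 8 of the glial and 15 of the muscle genes, against 60.1% of all genes. A lack of calls thus does not mean equal values. The neuronal sum was 1.21 times the female one in males (579842, 575249 and 568528 normalized reads against 475431, 465534 and 478432, exact permutation p = 0.10 two-sided, the smallest that 3 against 3 can give). Scaled to total linear reads, 11 of the 21 neuronal and 6 of the 12 glial genes were called higher in males. In the eye list Rh6, the green opsin of R8 cells, was higher in males (15245 and 22275 normalized reads, 0.55) and ninaD, a carotenoid uptake receptor, was higher in females (-0.88), out of 26. None of 12 accessory gland and ejaculatory duct genes and 1 of 14 testis genes (can, 0.96) was called. These sums and the hemocyte and fat body genes moved with sex together, and the part of tissue makeup in the gene differences was not tested.

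Most of the 1555 linear calls recurred at another age. In the same direction, 282, 704, 940, 906 and 815 were called at days 0, 10, 20, 40 and 50, and in the opposite direction 14, 32, 6, 1 and 10. Of all genes 5.2%, 11.6%, 16.6%, 10.2% and 11.3% were called at these ages in either direction. Of the 1555, 138 were called at all 5 other ages and 223 at none. Obp99a in females averaged 423, 12421 and 5004 normalized reads at days 0, 30 and 50, and fit 173, 32164 and 17184. In males Ugt37B1 averaged 20.2 at day 0 and 597 at day 30. Tested as an interaction, the sex difference at day 30 was larger than at day 0 for Obp99a by 4.51 on the log2 scale (adjusted p = 7.5e-05) in the female direction and for Ugt37B1 by 4.24 in the male direction (adjusted p = 6.9e-07). Among other fat body genes the interaction was called for Yp2 (-4.51), Yp3 (-2.76) and fit (-2.67). It was also called for Obp99b (3.40), sxe2 (2.50) and Cyp4d21 (1.47), with adjusted p for these 6 genes from 1.9e-12 (sxe2) to 0.032 (fit). It was not called for Yp1 (-2.04, adjusted p = 0.23), Lsp2 (-1.39, 0.17) or apolpp (-0.47, 0.20). Such an interaction was called for 6.2% of linear genes and 0.036% of circRNAs.

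Of 2775 circRNAs 16 (0.577%) were higher in males and 42 (1.51%) were higher in females, together 2.09%, and 308 had an unadjusted p under 0.05. The share of 2.09% is not set against the 12.3% of linear genes by any test. In simulated data a 2-fold change was recovered for 51% of circRNAs and 87% of linear genes. These changes were placed only in features averaging at least 10 normalized reads in females, with a single assumed spread for all features. Of the 2775 circRNAs, 1308 averaged at least 10 reads over the 6 libraries, so recovery among the rest was not measured. The sexes did not overlap for 21.5% of circRNAs, and the median circRNA differed by 0.14. Of the 42 female calls 36 were on the X, and of the 16 male calls 2. This is a description, since 14 of the 42 lie at the yolk genes, and 23 female and 2 male calls passed the filter on low circRNAs only through libraries of their own sex. Of the called circRNAs that passed it otherwise, 15 of 19 higher in females and 0 of 14 higher in males were on the X. Total circRNA reads were 123067, 121581 and 120501 in the females and 134378, 133492 and 137149 in the males, so that every male was above every female. The ratio was 1.11, whereas linear reads stood at 0.843 and, without yolk genes, 0.929 (exact permutation p = 0.10 for each, the smallest possible). Numbers of circRNAs detected overlapped, at 2320 to 2578 in females and 2469 to 2494 in males (exact permutation p = 0.70). The male count of 16 moved with the method, to 86 with edgeR (74 higher in females), 46 with DESeq2 and 53 with day 30 libraries only. It also rests on few libraries, as it was 3 without male replicate 3, 4 without female replicate 3, 6 without male replicate 2 and 7 without male replicate 1.

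X-linked circRNAs as a class were lower in males relative to autosomal ones. The median of 488 X-linked circRNAs was -0.22, against 0.17 on 2L, 0.23 on 2R, 0.20 on 3L, 0.17 on 3R and 0.17 on chromosome 4. Without the circRNAs at yolk genes, an alternative chosen after seeing the data, the X median was -0.19 over 471 circRNAs, of which 4.67% were higher in females. Over the 230 X-linked circRNAs with at least 10 reads, with those at yolk genes kept, the X median was -0.22. It was also -0.22 over 21 with at least 100 reads, of which 81.0% were below 0. The difference between X and the autosomal arms was -0.42 with the table's size factors and -0.41 when libraries were scaled to total circRNA reads, and it became -0.09 without the filter on low circRNAs. Linear genes showed a smaller gap. The medians of 2037 X-linked and the autosomal genes were -0.08 and 0.02, a gap of -0.11, and among linear hosts of circRNAs the X median was 0.01 against 0.13 to 0.17 on the autosomal arms. The circRNA to host ratio on the X had a median of -0.21 over 443 circRNAs.

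The same gap appeared in the summed reads. Without the yolk gene circRNAs, X-linked circRNAs made up 11.3%, 11.4% and 11.7% of circRNA reads in the females and 8.67%, 8.78% and 8.64% in the males. The lowest female library lay above the highest male one (exact permutation p = 0.10, the smallest that 3 against 3 can give). X-linked reads were 13902 ± 179 (SD) in females and 11739 ± 99.5 in males, a ratio of 0.844, whereas circRNA reads of the autosomal arms were 99793 ± 1402 and 114779 ± 1773, a ratio of 1.15. For linear reads without yolk genes the X share was 16.6% and 16.4%. At the other ages the female X share of circRNA reads was 11.4% to 12.1% and the male share 8.72% to 9.99%, the latter at day 20, where the 2 male libraries had 8.80% and 11.2%. The X medians at day 0, 10, 20, 40 and 50 were -0.13, -0.50, -0.16, -0.30 and -0.30.

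**Figure D4:**
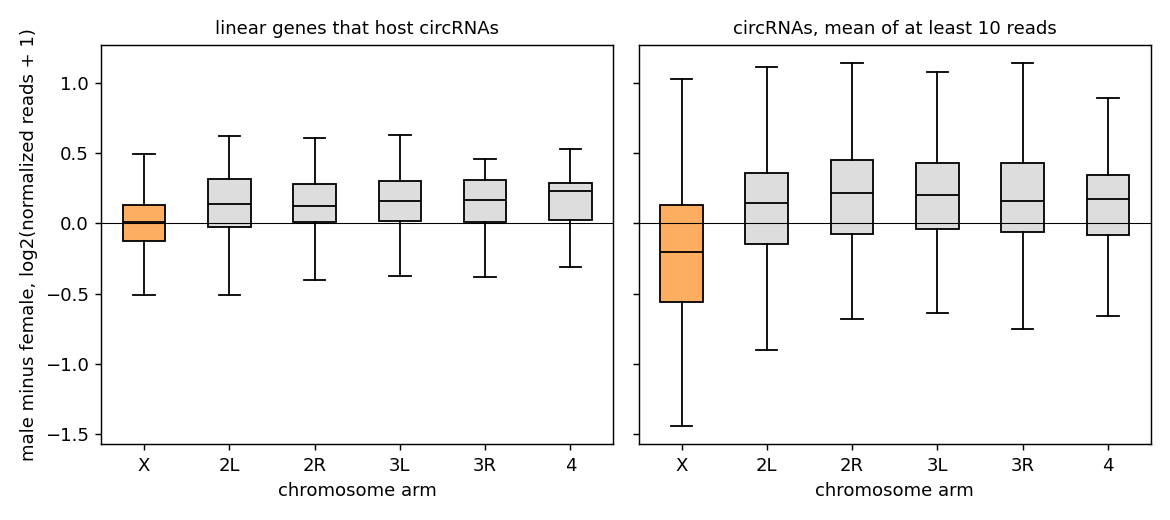
Male minus female log2 difference at day 30 by chromosome arm, left for linear genes that host circRNAs and right for circRNAs with a mean of at least 10 reads outside the yolk genes. Boxes span the quartiles with the median as a line, whiskers reach to 1.5 times the quartile range, points beyond are not drawn and the X is in orange; the X box of circRNAs lies below those of the other arms.

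The female calls outside the yolk genes included circRNAs of Hk, Tlk and CG33217. Hk encodes the beta subunit of Shaker potassium channels, Tlk a chromatin kinase, and slgA proline dehydrogenase. The 3 Hk circles share their 5′ end, so their junctions are shown side by side with the last 15 bases before the junction in lower case and the first 15 after it in capitals, on the transcribed strand in dm6 sequence; for each the region of the circle is given.
circHk, X:10257668-10259488: aaaaaacacattgagTAAACCATTGGGCCA
circHk, X:10254003-10259488: ctaccaccgcatcatTAAACCATTGGGCCA
circHk, X:10255493-10259488: gctatcaactacaagTAAACCATTGGGCCA
circTlk, X:3721376-3724871: atgagccgctttaagATGAATTTGTCACTT
circTlk, X:3721376-3721647: attactggagtgcggATGAATTTGTCACTT
circCG33217, 3L:23126200-23128370: tttaaaggaagttttATATCAGTATGGATC
circslgA, X:21376120-21381063: tggaggctgtttcggCAACAACCGAGATTG
All 7 have both ends at annotated exon ends.

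The circHk at 10257668-10259488 had 31.6, 51.6 and 31.6 normalized reads in the females and 2.78, 0 and 0 in the males (-4.62 ± 0.69, adjusted p = 1.9e-05, 123 and 3 reads). The circle from 10254003 had 6.53, 18.4 and 22.4 in the females and no read in any male, at least 17.1-fold higher (-3.91, adjusted p = 3.7e-04), and the circle from 10255493 was also higher in females (-3.88). All 3 Hk circles passed the filter only through female libraries, so their differences are a description. Linear Hk was at 20349 and 20922 normalized reads (0.04) and was not called, whereas all 3 circle to host ratios were called (-4.66, -3.95 and -3.92). circCG33217 had 107, 92.9 and 76.3 in the females and 3.71, 2.59 and 12.8 in the males (-3.90 ± 0.72, adjusted p = 0.0012), while its host differed by -0.75. The short circTlk had 65.3, 68.6 and 101 against 12.1, 19.8 and 12.8 (-2.32, adjusted p = 0.0078), and circslgA 68.5, 70.1 and 104 against 25.0, 16.4 and 16.8 (means of 80.8 and 19.4, adjusted p = 6.2e-05). The values of the sexes were separate for each of these, and both of the last pair were called in the same direction at all 5 other ages. Their hosts differed by -0.09 and -0.03. Of the 28 female calls outside the yolk genes, 22 were on the X and 22 had both ends annotated. Of the 23 with a host tested, 3 had a host called in the same direction and none in the opposite one, and 14 of the ratios were called. The abundant ones among them had smaller differences, such as circoc (238 and 137 normalized reads, -0.80), circmamo (222 and 131, -0.77), circbnb (-0.95) and circspri (-0.76).

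**Figure D5:**
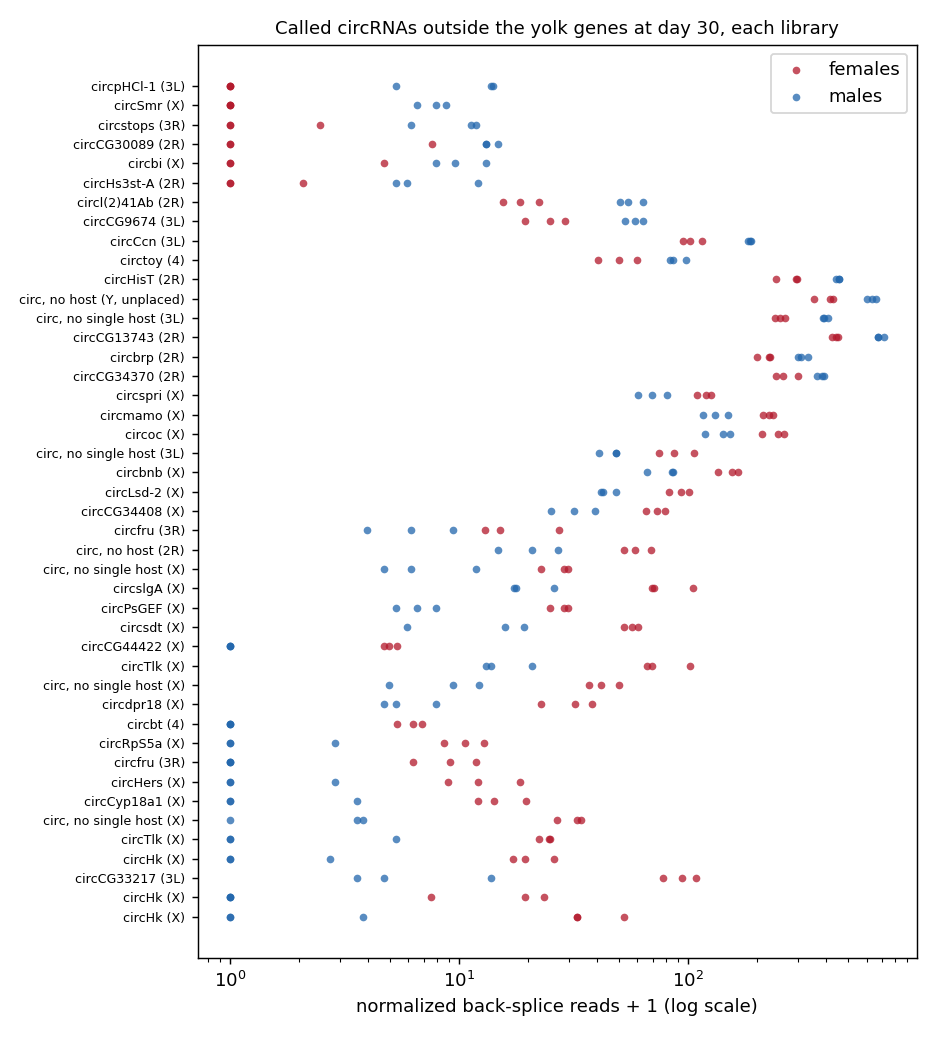
Normalized back-splice reads plus 1 (horizontal, log scale) of each circRNA called at day 30 outside the yolk genes, with its chromosome in brackets. Red points are the 3 female and blue points the 3 male libraries; the sexes do not overlap for any circRNA drawn, and most of those higher in females are on the X.

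Of the circRNAs higher in males, circCG9674 (3L:16799045-16799954) had 23.9, 28.0 and 18.4 normalized reads in the females and 57.5, 51.8 and 62.1 in the males (1.26 ± 0.28, adjusted p = 0.0054), and without female replicate 3 its adjusted p was 0.064. circCcn (3L:17721809-17723285) had 114, 100.3 and 93.3 against 181, 185 and 187 (0.84, adjusted p = 0.012). circpHCl-1 (3L:15859812-15879396), from a chloride channel gene, had no read in females and 13, 4.31 and 12.8 in males, at least 10.2-fold higher (3.33, adjusted p = 0.0094). Among abundant circles, circCG13743 averaged 438 and 686 (0.65), circHisT 278 and 450 (0.70) and circbrp, from the active zone gene bruchpilot, 216 and 315 (0.54). Of the 16 male calls 1 had a host called in the same direction and 4 had the ratio called. The junctions of these 3L circles are shown in the same way.
circCG9674: ctactcgaaggctctGCAAATATAAACTGA
circCcn: atccaacagctgatgCCAATTGCAGTGTGG
circpHCl-1: aatcccgtaacacagCGAACTGGCGACGTG
Scaled to total circRNA reads, 4 circRNAs were called higher in males, and circCcn (adjusted p = 0.074), circHisT (0.16) and circbrp (0.31) were not called.

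A circRNA of fru and a circRNA of dsx lay at exons that are spliced by sex. As background, the female exon of fru transcripts from the distal promoter is a lengthened form of the male exon, and dsx transcripts of males skip the female exon. Repeats bound by Tra and Tra-2 lie in both female exons. A circRNA of fru at 3R:18513451-18515343 (− strand) had 10.9, 8.11 and 5.26 normalized reads in the females and none in any male (25 and 0 reads), at least 8.76-fold higher (-3.13 ± 0.71, adjusted p = 0.0067). It had no male read at any age and passed the filter only through female libraries, so that this difference is a description. Its 1893 bases coincide with an exon of 4 of 15 annotated fru transcripts, and 4 others use a form of 292 bases that shares an end. The part found only in the long form holds 2 of the repeats, shown in capitals, 5′ to 3′ on the − strand.
fru, 3R:18513675-18513687: agataTCATCAATCAACAttccc
fru, 3R:18513640-18513652: gctgcTCTTCAATCAACActcaa
circfru junction: ccaccaactggcgcgCCAGAGCCAAAATGA
circdsx junction: cgctgtcctcttcgtGCCAAGACGTTTTCC
The circle of dsx at 3R:7930171-7935905 (− strand) had no read in females and 2.78, 4.31 and 4.93 normalized reads in males (0 and 13 reads), at least 4.06-fold higher. It missed the threshold as a level (2.30 ± 0.66, adjusted p = 0.052) and passed as a ratio to linear dsx (2.61, adjusted p = 0.0057), but with no female read at any age it too passed the filter only through one sex. Its ends are exon ends together in 3 of 7 annotated dsx transcripts, and the span encloses the exon of 1172 bases with 6 of the repeats. The repeats occurred in 8 of 2602 circRNA spans (0.307%). A second fru circle at 3R:18434235-18435790, whose exon all 15 transcripts hold, had 12, 14 and 26.3 against 8.35, 5.18 and 2.96 (-1.51, adjusted p = 0.045). That call was lost without female replicate 2 (0.074) or 3 (0.34) and without male replicate 2 (0.12) or 3 (0.29). The other dsx circle (20.3 and 15.9 normalized reads), the third fru circle, 6 Sxl circles and 2 JIL-1 circles were not called.

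Of the circRNAs that overlap yolk genes, 17 were tested and 14 called, all higher in females, and none of the 17 had a read in any male at day 30. The 14 passed the filter only through female libraries, so that their calls are a description. Together the 17 had 403, 454 and 429 normalized reads in the females. The most abundant, at X:10055355-10055434 inside Yp1, had 178, 212 and 170 in the females, at least 202-fold higher than in males (-7.55 ± 0.45, adjusted p = 9.6e-17), and was called at all 5 other ages. circYp1 at X:10054516-10054707 had 54.4, 54.6 and 51.3, at least 57.9-fold higher (-5.77). The splice signals beside the ends of 14 of the 17, including the most abundant, lay on the strand opposite to the yolk gene, and 16 had no annotated end. Several of the 14, such as the one at X:10054663-10054931, have the antisense RNA gene asRNA:CR45601 (− strand) as their listed host. The most abundant has no listed host. In all 2602 tested circRNAs with a host strand, the signals lay on the host's strand. The circles listed under asRNA:CR45601 are among these, so this number gives no baseline for the yolk gene circles. Whether the reads at yolk genes come from rings or from joining of abundant linear yolk RNA was not tested. Relative to the linear RNA, circYp1 and both circYp3 were called higher in males (ratios of 7.62, 6.34 and 4.86), which follows from 0 reads of the circle in males and the fall of the linear RNA.

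In all, 2595 circRNA to host ratios were tested, with 14 (0.539%) higher in males and 17 (0.655%) higher in females, together 1.19%. Without female replicate 3 the female number was 11. The largest ratios in the female direction were those of circHk, the long circTlk (-3.69) and the circfru at 3R:18513451-18515343 (-3.31). Of the male calls, 2 circles of CG5172 had no read in any of the 6 libraries, and their ratio of 3.38 is the host's difference with its sign turned.

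None of the 10 most abundant circRNAs was called. circMbl averaged 24411 ± 788 normalized reads in females and 27750 ± 817 in males (0.19 ± 0.24, adjusted p = 0.87). circBtsz, from a synaptotagmin-like gene, averaged 5407 ± 286 and 6839 ± 48.7 (0.34 ± 0.07, adjusted p = 0.0023), which is below the size limit, and circScro 2743 and 2660. Of the 58 circRNAs called at day 30, 12, 25, 27, 38 and 21 were called in the same direction at days 0, 10, 20, 40 and 50, and 0 in the opposite direction, whereas 3.32%, 2.52%, 2.45%, 2.2% and 1.05% of all circRNAs were called there in either direction. Of the 58, 5 were called at all other ages and 15 at none.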

How the data were processed

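The samples were total RNA of CantonS heads, depleted of ribosomal RNA and sequenced with a directional kit. The deposited table holds normalized reads (signal values), which the authors made by aligning linear reads to dm6 with STAR, counting them per gene with featureCounts, finding back-splice reads with find_circ2 and dividing both by a joint DESeq2 size factor per library; tool versions and the strand setting of the counting were not given in the sources used here. In the 6 libraries used here positive values were multiples of a fixed step to within 0.01 reads, and 100% of values came out whole. Whole reads were recovered from these multiples.

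Groups came from the sample labels. Linear genes averaging 10 or more normalized reads, and circRNAs spanning at least 50 bases with a mean of at least 1 in each of 12 groups or at least 10 in some library, were tested with limma 3.58.1 (trend and robust options) in R 4.3.3 on log2(value + 1), with 12 group means over 33 libraries. For circRNAs 32 were used, since female replicates 1 and 2 of day 50 held identical back-splice reads and were averaged. Counts were tested with edgeR 4.0.16 and DESeq2 1.42.0 as alternatives on the recovered reads. A ratio is the difference between log2 values of a circRNA and its linear host. Exact permutation tests were two-sided, and lower bounds use a floor of 3 counts over the group; both these bounds and p-values cover counting error or the spread of these libraries only. Linear reads do not limit most genes named, but S-Lap7, kl-2, the ppk genes and the Su(Ste) repeats had few or no reads in a sex. Many circRNAs had under 10 reads in a library. In data simulated for 12685 linear genes and 2775 circRNAs, changes of 2-fold were recovered for 87% and 51%. Changes of 4-fold were recovered for 100% and 95%, and 8.33% and 3.95% of calls were false. Changes were placed only in features with a female mean of at least 10 normalized reads at day 30. A single assumed spread was used for all features, so these rates need not hold in the real data.

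Genes named are the 12 largest called differences in each direction with no overlap and a mean of at least 50 reads, and called or defining members of the lists; circRNAs named are the 10 largest called in each direction with a mean of at least 10, the 10 most abundant, and those of sex determination genes; ratios are the 5 largest in each direction. Genes beside a named gene, S-Lap7 and the other called circRNAs were named after their values were seen. Members and lists were chosen with earlier results of these data known. Gene positions and exons are from the Ensembl annotation and sequences from the RefSeq genome of BDGP Release 6, which has the coordinates of dm6. Alternatives were other pseudocounts, filters, scalings and tools, day 30 libraries alone, a replicate block and leaving out each library. Authors' comparisons were not used, and 2 male samples that the authors left out as outliers of other ages were not analysed here. The numbers of replicates do not pair the sexes, since the labels give no shared animal or day and same-numbered deviations correlated at 0.042, 0.021 and 0.10 for linear genes and -0.013, 0.011 and -0.015 for circRNAs.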

Additional observations from a re-analysis of the deposited data

Results flagged for a closer look

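The sex difference at day 30 differed from that at day 0 for 30 of the 87 genes and circRNAs described in most detail, by an interaction test in the same limma model (Benjamini-Hochberg over all features). The values are day 30 minus day 0 of the male minus female log2 difference, so that a negative value means a shift towards females. The shift towards males was 4.24 for Ugt37B1, 3.40 for Obp99b, 2.76 for CG8100, 2.50 for sxe2, 2.50 for Ir75a, 2.05 for Cyp313a1, 1.58 for Amy-p, 1.47 for Cyp4d21 and 1.05 for Gnmt, with adjusted p from 1.9e-12 (sxe2) to 0.043 (Gnmt). Obp99b was at -0.63 at day 0 and at 2.78 at day 30. Hml shifted by 0.86, from -0.95 at day 0 to -0.08, and tra by 0.58, from -0.90 to -0.32, so that both were nearer to 0 at day 30.

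A shift away from males was measured for roX1 (-3.59, from 9.25 at day 0 to 5.66 at day 30, adjusted p = 3.7e-18), for roX2 (-3.37, from 9.59 to 6.22) and for fs(1)Yb (-1.81, from 4.78 to 2.98, adjusted p = 0.048). For roX1 it came with a female mean of 189 normalized reads at day 0 and 3645 at day 30.

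Shifts towards females were -5.57 for CG10814, -5.44 for FBgn0028519, -4.51 for Yp2, -4.51 for Obp99a, -3.49 for asRNA:CR45046, -3.20 for Nazo, -3.17 for Ndg, -2.76 for Yp3, -2.67 for fit, -2.55 for CG5172, -1.25 for rost, -1.05 for Ilp5, -0.64 for RpS6, -0.60 for RpL3 and -0.55 for dsx, the last from 0.25 at day 0 to -0.31. The circRNA at X:10055355-10055434 in Yp1 shifted by -3.47 (adjusted p = 0.0071). Of 67 other members of the hand-listed pathways and tissues called at day 30, gene families not counted, 28 also had a called shift. Day 0 flies were collected soon after eclosion. The part of depth or tissue makeup in these shifts was not tested.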

How the results depend on the processing

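None of the 87 genes and circRNAs described in most detail changed sign while called, but the balance of calls turned towards males under some settings. Other named genes and circRNAs were not checked for sign in this way. Of linear genes, scaling to total linear reads gave 2290 higher in males and 546 in females, and scaling without yolk genes 975 and 770. For circRNAs the male count of 16 became 32 with a pseudocount of 5, 53 with day 30 libraries only, 86 with edgeR, 46 with DESeq2, 10 with a mean of at least 10 and 4 when scaled to total circRNA reads. The female count of 42 became 64 with day 30 libraries only, 74 with edgeR (below its male count), 24 with a mean of at least 10 and 26 without yolk gene circRNAs. With the replicate number as a block, circRNA counts were 6 in males and 33 in females (31 and 46 with day 30 libraries only), linear counts 492 and 1016 (625 and 1095), and the ratio calls higher in females 11; day 30 libraries only also gave 11 ratios. The numbers only name the samples, so the block carries no pairing. Leaving out each library gave 457 to 508 linear calls in males and 990 to 1030 in females, 3 to 21 circRNAs in males and 32 to 37 in females, and 11 to 14 and 11 to 15 ratios. The ratio of circRNA totals was then 1.10 to 1.12 and of linear totals 0.842 to 0.845 (0.929 without yolk genes), and the X share of circRNA reads differed by -3.17 to -2.94 percentage points. It differed by -3.08 with all circRNAs and -2.77 without those at yolk genes, which was chosen after seeing the data. The circfru at 3R:18513451-18515343 missed the threshold only in the block with day 30 libraries (adjusted p = 0.069). The dsx circle passed it with a pseudocount of 0.5 (adjusted p = 0.034), and Drs missed it with edgeR (0.062). The glial gene repo passed when scaled to total linear reads (log2 difference of 0.55). The causes of these changes were not tested. Depth limits circRNAs, and also the fold differences of named linear genes with few or no reads in a sex, such as S-Lap7 and the ppk genes.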
